A study of Mus musculus with 24 samples.

Results

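The 10 genes described here, Cdkn1a, Mdm2, Btg2, Ccng1, Gadd45a, Sesn1, Phlda3, Bbc3, Zmat3 and Bax, are well known transcriptional targets of the tumour suppressor p53. They were taken by symbol from the deposited count table, which holds 49568 gene symbols, and all 10 were found. RNA came from NIH/3T3 cells, an immortalized line of mouse fibroblasts, that had received either halofuginone (100 nM in the sample labels) or an equal volume of the vehicle PBS for 24 h at 37 °C. Each treatment was profiled as total RNA and as 3 pools of a polysome gradient, which separates mRNA by the number of ribosomes it carries. The pools were ribosome-free (free mRNA-protein particles and ribosomal subunits), light polysomes (monosomes and short polysomes) and heavy polysomes (more than 5 ribosomes), so that 8 groups of 3 libraries gave 24 libraries, labelled as biological triplicates. All cells were of the same unmodified line, and no group carried a change in p53 or in any of the 10 genes.

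p53 is a transcription factor that is kept at low levels by the ubiquitin ligase Mdm2, itself encoded by a p53 target, and accumulates when DNA damage or other stress frees it from Mdm2. It then raises transcription of genes that stop the cell cycle, limit growth signalling or trigger apoptosis. Halofuginone blocks the prolyl-tRNA synthetase activity of the bifunctional enzyme Eprs, so uncharged tRNA accumulates and the amino acid response, a stress pathway that runs through the kinase Gcn2 and the factor Atf4, is switched on. Some of the 10 genes, Gadd45a and Bbc3 among them, are also known to respond to stress without p53. NIH/3T3 cells carry a working p53 but have lost the Cdkn2a locus, whose product Arf restrains Mdm2.

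Depth ran from 10.3 to 24.97 megacounts per library, and the lowest count of any of the 10 genes was 36, for Sesn1 in 1 light polysome library with halofuginone. Levels are CPM, counts scaled to a fixed library total, after scaling of the libraries of 1 kind of RNA to each other, so they are shares of a pool and not amounts per cell, and fewer cells and less RNA per cell cannot be told apart. The column headers split the libraries into 8 of a set A, whose halofuginone headers give 50 nM, and 16 of a set B with tags 2, 3 or 4. Which dose the set A cells received could not be settled, and the gradient fractions were also pooled differently, with heavy polysomes from fractions 7 to 11 in set A and 14 to 21 in set B. Mitochondrial counts took from 22.9% to 34.9% of the set B ribosome-free libraries. They took 8.69% and 11.1% of the set A ones and at most 0.746% of any heavy polysome library, so the pools differ in make-up. Within the halofuginone total RNA group the 2 set B libraries were close to each other, with a mean chi-square of 2.96 per gene against at least 19.6 for any other pair of libraries of the same group. The set A library of that group stood apart from both, at 305 and 329. This was not particular to total RNA. In the ribosome-free pool set A stood at 312 and 230 from the set B libraries with halofuginone and at 383 and 376 with vehicle. In light and heavy polysomes with halofuginone the set B libraries were further from each other, at 186 and 227, than from set A. Results that rest on the set A halofuginone library of total RNA are given with and without it. All 8 fibroblast markers examined reached 5 CPM in total RNA of both treatments, their summed level running from 4707 to 9708 CPM with halofuginone and from 9870 to 11170 CPM with vehicle. None of the 5 epithelial and 6 leukocyte markers reached 5 CPM. Of the endothelial markers, 1 of 5 reached 5 CPM in both treatments, and the 5 summed to between 26.3 and 85.8 CPM with halofuginone and between 10.5 and 17.1 CPM with vehicle. The 5 adipocyte markers summed to between 89.3 and 168 CPM with halofuginone and between 134 and 282 CPM with vehicle. The part of these shifts in the results below was not tested.

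Trp53, which encodes p53, was measured at 273, 238 and 223 CPM in halofuginone total RNA (set A, tag 2 and tag 3 in this order, as in all lists of 3 values for total RNA) against 251, 200.4 and 204 CPM with vehicle. These groups overlapped, and the fitted log2 fold change of 0.16 ± 0.17 (SE) did not pass the test (edgeR quasi-likelihood test, Benjamini-Hochberg adjusted p = 0.566). Cdkn2a had 0 counts in all 6 total RNA libraries.

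The cell cycle arrest genes differed widely from each other in total RNA. Cdkn1a (chr17:29090976-29100727, plus strand of GRCm38 in GENCODE M21, as for all genes below) encodes p21, the inhibitor of cyclin-dependent kinases through which p53 holds cells in G1. Its levels were 163, 159 and 155 CPM with halofuginone against 142, 107 and 119 CPM with vehicle. Every halofuginone library lay above every vehicle library, by a margin that was small beside the level itself. The fitted fold was 1.30 (log2 0.38 ± 0.16, SE, n = 3 each, adjusted p = 0.287).

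Gadd45a (chr6:67035096-67037457, minus strand) encodes a stress-induced protein that binds stress kinases and promotes arrest in G2. Its levels were 42.3, 303 and 298 CPM with halofuginone against 33.7, 26.1 and 27.7 CPM with vehicle. The groups did not overlap, yet the set A halofuginone library was far nearer to the vehicle libraries than to its own group. The ratio of the libraries that share a tag was 1.26 (set A), 11.6 (tag 2) and 10.8 (tag 3), and the fitted log2 fold change was 2.88 ± 0.71 (adjusted p = 0.267). Exons of Gadd45a share 337 bases with the antisense RNA gene E230016M11Rik, which lies on the opposite strand, and the strand setting of the counting is not given in the sources used here. E230016M11Rik itself was low, at 1.99, 5.62 and 6.35 CPM with halofuginone against 2.41, 1.74 and 2.35 CPM with vehicle, so its counts were a small fraction of those of Gadd45a in each library.

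Btg2 (chr1:134075170-134079120, minus strand) encodes an antiproliferative protein that recruits the deadenylase complex to mRNA. Its levels were 16.6, 14.3 and 12.7 CPM with halofuginone against 17.3, 13.7 and 13.7 CPM with vehicle. The groups overlapped almost entirely (log2 -0.03 ± 0.20, adjusted p = 0.927).

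Of the feedback genes, Mdm2 (chr10:117688875-117710758, minus strand) was measured at 98.3, 194 and 207 CPM with halofuginone against 111, 96.0 and 92.3 CPM with vehicle. The set A halofuginone library lay inside the vehicle range, whereas both set B libraries lay well above it (log2 0.74 ± 0.30, adjusted p = 0.277). Ccng1 (chr11:40748552-40755311, minus strand) encodes cyclin G1, which binds protein phosphatase 2A and acts on Mdm2. Its levels were 175, 304 and 311 CPM with halofuginone against 218, 251 and 195 CPM with vehicle. Here the set A halofuginone library was the lowest of all 6 and the set B ones were the highest (log2 0.25 ± 0.26, adjusted p = 0.572).

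Among the genes of growth signalling and RNA control, Sesn1 was the only one of the 10 whose fitted log2 fold change was below -0.1. Sesn1 (chr10:41809935-41908424, plus strand) encodes sestrin 1, an inhibitor of the growth kinase complex mTORC1. Its levels were 33.9, 8.38 and 10.3 CPM with halofuginone against 31.0, 38.1 and 31.2 CPM with vehicle. The set A library was again inside the vehicle range and both set B libraries were far below it (log2 -0.93 ± 0.54, adjusted p = 0.363). Zmat3 (chr3:32334792-32366014, minus strand), whose zinc finger product binds RNA, was measured at 105, 232 and 241 CPM with halofuginone against 132, 125 and 113 CPM with vehicle. Both set B libraries with halofuginone were above every vehicle library and the set A library was below them all (log2 0.64 ± 0.33, adjusted p = 0.330). Phlda3 (chr1:135766119-135769136, plus strand) encodes a membrane-binding antagonist of the survival kinase Akt. Its levels were 145, 103 and 98.6 CPM with halofuginone against 136, 103 and 108 CPM with vehicle, with overlapping groups (adjusted p = 0.998).

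Both cell death genes had positive fitted changes in total RNA. Bbc3 (chr7:16308393-16318205, plus strand) encodes Puma, a BH3-only protein that sets off apoptosis at mitochondria. Its levels were 12.8, 20.0 and 20.9 CPM with halofuginone against 7.30, 6.67 and 7.43 CPM with vehicle. All 3 halofuginone libraries lay above the vehicle ones, set A included, at ratios of 1.75, 3.00 and 2.81 within a tag (log2 1.33 ± 0.24, adjusted p = 0.267). Bax (chr7:45461697-45466898, minus strand), the pore-forming protein that such BH3-only proteins activate, was measured at 158, 136 and 123 CPM with halofuginone against 130.5, 95.9 and 96.4 CPM with vehicle. Within each tag the halofuginone library was the higher one, but the groups overlapped (log2 0.37 ± 0.19, adjusted p = 0.334). Bax shares 192 exonic bases with the gene model Gm45808 on the same strand, a symbol that has no row in the count table. How reads there were assigned was not stated. Cdkn1a likewise shares 273 exonic bases with AC167363.2, on the opposite strand and also without a row.

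**Figure D1:**
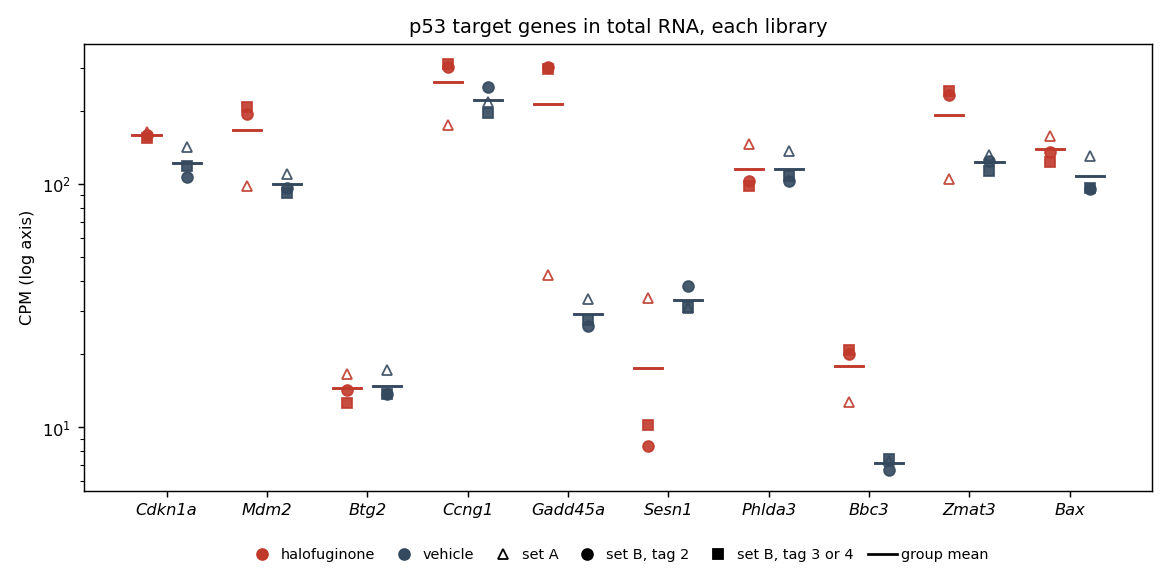
CPM of the 10 p53 target genes in each total RNA library, on a log axis, with halofuginone left of vehicle, open triangles for set A, filled symbols for set B and a line at the group mean. The set A halofuginone library lies apart from both set B ones for Gadd45a, Sesn1, Mdm2 and Zmat3, and Bbc3 separates the treatments in all libraries.

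With all 3 libraries per group, 0 of the 10 genes passed an adjusted p of 0.05 in total RNA, where 0% of the 13020 genes tested did. At an unadjusted p under 0.05, Mdm2, Gadd45a and Bbc3 were higher, 3 of 10, against 11.2% of all genes higher at that level. With DESeq2, Gadd45a (adjusted p = 0.00282) and Bbc3 (adjusted p = 0.000925) passed, 2 of 10, against 2.27% of all genes called higher by that tool. Cdkn1a, Gadd45a and Bbc3 were the 3 members whose groups did not overlap, all higher with halofuginone, against 12.2% of all genes. The median log2 fold change of the 10 genes was 0.37, beside 0.02 over all genes tested. With the halofuginone library of set A left out, 6 of the 10 genes passed in edgeR, Mdm2, Ccng1, Gadd45a, Bbc3 and Zmat3 higher and Sesn1 lower, against 8246 of all 13455 genes (61.3%). Cdkn1a had an adjusted p of 0.0547 in that fit.

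The 2 libraries per treatment of set B alone gave a comparison in which all labels and headers go together. Against the vehicle libraries, 7 of the 10 genes rose with halofuginone and 1 fell. In the same fit 70.0% of 13334 genes passed, 33.1% higher and 36.9% lower, so a passing test was the usual case and the close agreement of the halofuginone libraries went into it. Gadd45a rose most, 10.8-fold (log2 3.44 ± 0.08, edgeR adjusted p = 1.27e-07), followed by Bbc3 (log2 1.49 ± 0.12, adjusted p = 1.84e-05), Mdm2 (1.04 ± 0.07, adjusted p = 1.08e-05) and Zmat3 (0.94 ± 0.08, adjusted p = 2.43e-05). Cdkn1a, Ccng1 and Bax rose by less, at log2 fold changes of 0.43, 0.41 and 0.38. Sesn1 fell to 0.261 of the vehicle level (log2 -1.94 ± 0.15, adjusted p = 1.36e-05). Btg2 (log2 -0.07, adjusted p = 0.620) and Phlda3 (log2 -0.11, adjusted p = 0.194) did not pass. Trp53 did not pass either (log2 0.14 ± 0.07, adjusted p = 0.107). The antisense partner of Gadd45a, E230016M11Rik, rose at a log2 fold change of 1.52 ± 0.21 (adjusted p = 0.000357), less than Gadd45a itself.

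Other genes of the pathway moved in both directions in set B total RNA, where 33.1% of all genes were higher and 36.9% lower. Of 16 tested regulators and sensors of p53, 7 rose and 5 fell, among them the damage kinase Atr (log2 1.24), the p53 ubiquitin ligase Rchy1 (1.11) and the p53 kinase Hipk2 (-0.99). Of 15 further arrest and feedback targets, 7 rose and 4 fell, led by the polo-like kinase Plk2 (2.76), Ndrg1 (2.52) and the cyclin G2 gene Ccng2 (-2.26). Of 13 tested further cell death targets, 6 rose and 3 fell, with the receptor gene Eda2r at 1.61, Pmaip1, which encodes the BH3-only protein Noxa, at 1.57 and the decoy receptor gene Tnfrsf23 at -1.38. Pmaip1 was scarce in both treatments, at means of 0.820 CPM with halofuginone and 0.264 CPM with vehicle. Of 20 further targets in metabolism, redox defence and DNA repair, 11 rose and 5 fell. There the sestrin genes went separate ways, with Sesn2 at 2.09 and Sesn3, like Sesn1, lower at -2.36. The stress cytokine gene Gdf15 had 13 and 25 counts with halofuginone against 0 and 0 with vehicle. The median log2 fold changes of these 4 lists were 0.16, 0.43, 0.20 and 0.43, beside -0.02 over all genes tested and 0.42 over the 10 p53 targets.

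Cell cycle genes linked to p21 were lower more often than higher in the same libraries. The list of 16 cell cycle partners of p21 includes the cyclins and kinases it binds and the pocket proteins. Of these, 3 rose and 9 fell, against 33.1% of all genes higher and 36.9% lower. The pocket protein gene Rbl2 (log2 -1.69) and the cyclin gene Ccna2 (-1.42) were lower and Ccnd2 (1.24) was higher. Of 15 genes that p53 is known to repress through p21 and the DREAM complex, 14 fell and 0 rose, against 36.9% of all genes lower. The cyclin gene Ccnb2 fell to 3.65 CPM with halofuginone, against 23.3 CPM with vehicle (log2 -2.72). The mitotic kinase gene Plk1 (-2.08) and the spindle gene Prc1 (-1.84) followed. The median of this list was -1.53. With all 3 libraries per group 0 of the 15, and none of the 16 partners, passed the adjusted test (0% of 13020 genes did). Of the 15, 0 had a log2 fold change above 0, and their median was -0.66. The share of all genes below 0 in that fit was not counted. The fall was not seen in every kind of RNA. Log2 fold changes of the 15 ran from -0.013 (Ccnb2) to 0.49 (Prc1) in the ribosome-free pool. In heavy polysomes they ran from -0.30 (Ccnb2) to 0.25 (Birc5), also with all 3 libraries per group.

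Promoter sequence from RefSeq (GRCm38.p6, 250 bases before to 50 bases after each start) was available for 9 of the 10 genes, as 13 promoters. Each was searched on both strands for the p53 response element, a pair of decamer half-sites up to 13 bases apart, with the fewest mismatches to the consensus. Only half-sites that keep the fixed C and G of the consensus RRRCWWGYYY were considered, in these and in all other promoters. The 2 best members are printed because they hold the closest matches, and Bbc3 as an example of a more distant match in 1 of the 2 members that passed with DESeq2 in total RNA. Capitals mark the half-sites.
Cdkn1a, chr17:29090729-29091028, plus strand: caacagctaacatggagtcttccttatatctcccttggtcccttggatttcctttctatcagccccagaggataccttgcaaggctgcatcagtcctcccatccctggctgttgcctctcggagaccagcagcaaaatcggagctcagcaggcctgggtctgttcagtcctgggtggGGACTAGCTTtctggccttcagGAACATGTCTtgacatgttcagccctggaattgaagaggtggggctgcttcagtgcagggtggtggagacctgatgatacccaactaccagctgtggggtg
Ccng1, chr11:40755237-40755536, minus strand: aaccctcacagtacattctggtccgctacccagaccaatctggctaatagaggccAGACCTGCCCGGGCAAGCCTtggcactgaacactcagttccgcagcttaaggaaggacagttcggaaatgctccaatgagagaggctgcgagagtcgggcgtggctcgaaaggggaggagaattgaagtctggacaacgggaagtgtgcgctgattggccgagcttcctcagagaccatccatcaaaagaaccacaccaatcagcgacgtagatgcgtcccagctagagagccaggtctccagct
Bbc3, chr7:16309333-16309632, plus strand: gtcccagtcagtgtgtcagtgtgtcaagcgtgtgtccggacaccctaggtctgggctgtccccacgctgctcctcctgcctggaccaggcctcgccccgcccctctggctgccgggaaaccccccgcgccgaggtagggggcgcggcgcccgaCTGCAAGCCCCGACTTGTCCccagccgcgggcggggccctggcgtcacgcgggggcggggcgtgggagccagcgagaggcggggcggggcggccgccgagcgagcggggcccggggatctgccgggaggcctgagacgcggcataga

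The Cdkn1a window, which lies at the upstream one of 2 starts of this gene, held a match with 0 mismatches, as did 0.0731% of all 32851 promoters searched. Its marked half-sites are 12 bases apart, and the search put no cost on the gap. The decamer tgacatgttc directly follows GAACATGTCT in this window, and that adjoining pair was passed over because it has more mismatches. The marked pair is thus the closest by letters and need not be the element that p53 binds. The Ccng1 match had 1 mismatch (0.627% of promoters have at most that many) and the Bbc3 match had 3 (15.6%). Matches with 2 mismatches, found in 4.09% of promoters at most that far from the consensus, lay in the promoters of Gadd45a, Sesn1 and Bax.
Gadd45a: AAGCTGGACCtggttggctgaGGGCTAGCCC
Sesn1: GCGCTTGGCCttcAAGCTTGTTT
Bax: TGACAAGCATatcccAGGCAAGCTT
The best matches of Mdm2 and Btg2 had 4 mismatches and that of Phlda3 had 5. For genes with more than 1 promoter the best one is given, whereas the shares of all promoters are per promoter. The other Sesn1 promoter had 5 mismatches. Gadd45a, with the largest change in set B, and Sesn1, the member that fell, thus held matches of the same quality in these windows. The element TGATGNAA, a form of the Atf4 site, was searched on both strands and was in 0 of the 13 promoters, against 3.97% of all. A match describes these letters only.

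In the ribosome-free pool none of the 10 genes passed the test or separated the treatments without overlap. The fitted log2 fold changes ran from -0.62 for Btg2 to 0.15 for Zmat3, 0 of 10 passed (0% of 11960 genes did), and 0 of 10 had groups that did not overlap, against 2.01% of all genes. Gadd45a was at 91.6, 38.2 and 36.1 CPM with halofuginone (set A, tag 2 and tag 4, as in all lists for the pools) against 37.5, 78.9 and 41.0 CPM with vehicle. Bbc3 was at 18.8, 6.62 and 8.95 CPM with halofuginone against 16.7, 7.48 and 6.90 CPM with vehicle. Bax was at 712, 234 and 237 CPM with halofuginone against 676, 221 and 218 CPM with vehicle, the set A library being the highest in both. Within tags it was slightly higher with halofuginone each time, at ratios of 1.05, 1.06 and 1.09. Btg2 was at 54.7, 16.2 and 77.8 CPM with halofuginone against 87.3, 55.1 and 86.3 CPM with vehicle, lower within each tag at ratios of 0.626, 0.293 and 0.901. The other 8 genes had ratios above 1 in some tags and below 1 in others, and 0 of 10 passed with the tag as a replicate block, as 0.125% of all genes did.

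In light polysomes 0 of 10 genes passed the adjusted test (0% of 12632 genes did). With the tag as a replicate block 0 of 10 passed as well. Btg2 was the member with groups that did not overlap: 52.4, 22.7 and 18.0 CPM with halofuginone against 125, 64.6 and 90.4 CPM with vehicle. It was lower in all 3 tags, at ratios of 0.421, 0.352 and 0.200, with a log2 fold change of -1.58 ± 0.45 (unadjusted p = 0.00767, adjusted p = 0.981). Of all genes, 5.97% were lower with no overlap in this pool. Gadd45a was at 106, 93.5 and 228 CPM with halofuginone against 39.6, 115 and 64.8 CPM with vehicle, higher in set A and tag 4 and lower in tag 2 (log2 0.96 ± 0.49, adjusted p = 0.981).

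In heavy polysomes, the pool of mRNA with the most ribosomes, 0 of 10 genes passed (0% of 12222 genes did). The fit with the tag as a replicate block also gave 0 of 10. Bax was at 176, 240.1 and 166 CPM with halofuginone against 137, 161 and 161 CPM with vehicle, above it in every library. Sesn1 was at 13.8, 18.1 and 4.01 CPM with halofuginone against 27.6, 19.9 and 18.4 CPM with vehicle, below it in every library. These were the 2 of 10 genes whose groups did not overlap, against 12.5% of all genes, and their log2 fold changes were 0.34 ± 0.25 and -0.87 ± 0.50. Btg2 was at 20.4, 9.40 and 7.22 CPM with halofuginone against 32.2, 17.9 and 23.3 CPM with vehicle. It was lower within each tag, although the groups overlapped (log2 -0.99 ± 0.43, adjusted p = 0.808).

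Gadd45a in heavy polysomes was at 43.8, 65.5 and 140 CPM with halofuginone against 15.5, 60.6 and 35.9 CPM with vehicle. The ratios were 2.82 (set A), 1.08 (tag 2) and 3.89 (tag 4) (log2 1.15 ± 0.57, adjusted p = 0.841). In set A this ratio was above the 1.26 of total RNA, whereas both set B ratios were far below those of total RNA. Bbc3 was at 11.6, 7.42 and 15.5 CPM with halofuginone against 6.11, 7.92 and 7.80 CPM with vehicle, higher in set A and tag 4 and lower in tag 2 (log2 0.66 ± 0.34, adjusted p = 0.846). Mdm2 was at 101, 56.0 and 48.7 CPM with halofuginone against 105, 44.9 and 23.3 CPM with vehicle, and Cdkn1a at 212, 141 and 103 CPM with halofuginone against 246, 118 and 59.6 CPM with vehicle. For both, the set A library was lower with halofuginone and the set B libraries were higher. Zmat3 was at 148, 144 and 235 CPM with halofuginone against 168, 112 and 102 CPM with vehicle, in the same arrangement (log2 0.47 ± 0.31, adjusted p = 0.856). Over the 10 genes the median log2 fold change was 0.18 in heavy polysomes, 0.17 in light polysomes and 0.05 without ribosomes, beside 0.02, 0.01 and -0.001 over all genes.

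**Figure D2:**
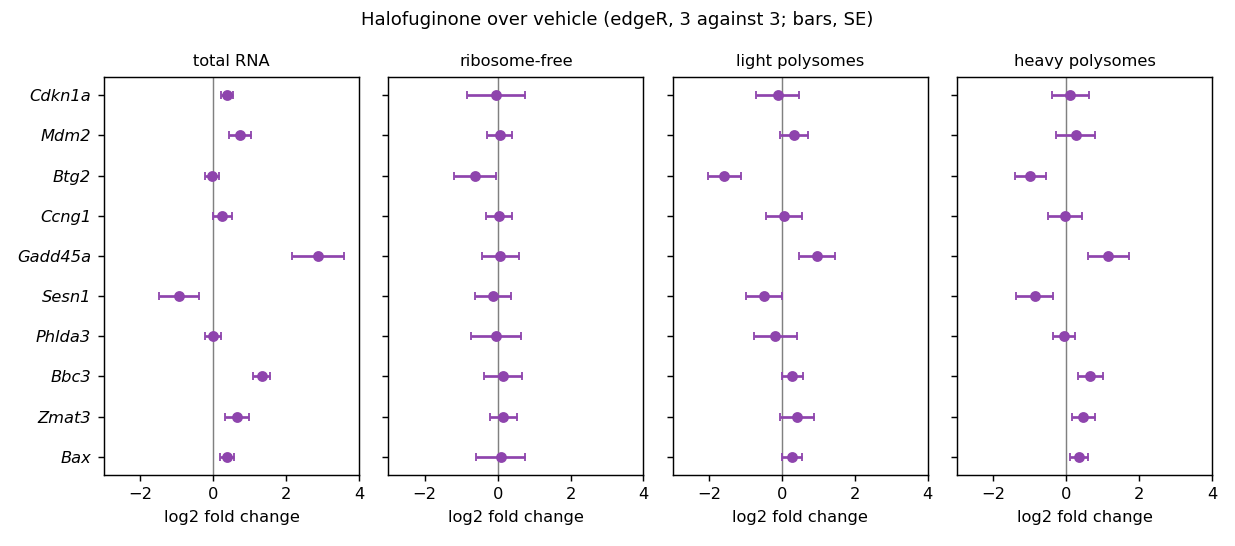
Fitted log2 fold change of halofuginone over vehicle for the 10 genes in total RNA and each gradient pool (points; bars are the SE, n = 3 libraries per group). Gadd45a is right of 0 in total RNA, light and heavy polysomes, Btg2 is near 0 in total RNA and at -1.58 in light polysomes, and the ribosome-free values centre on 0.

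**Figure D3:**
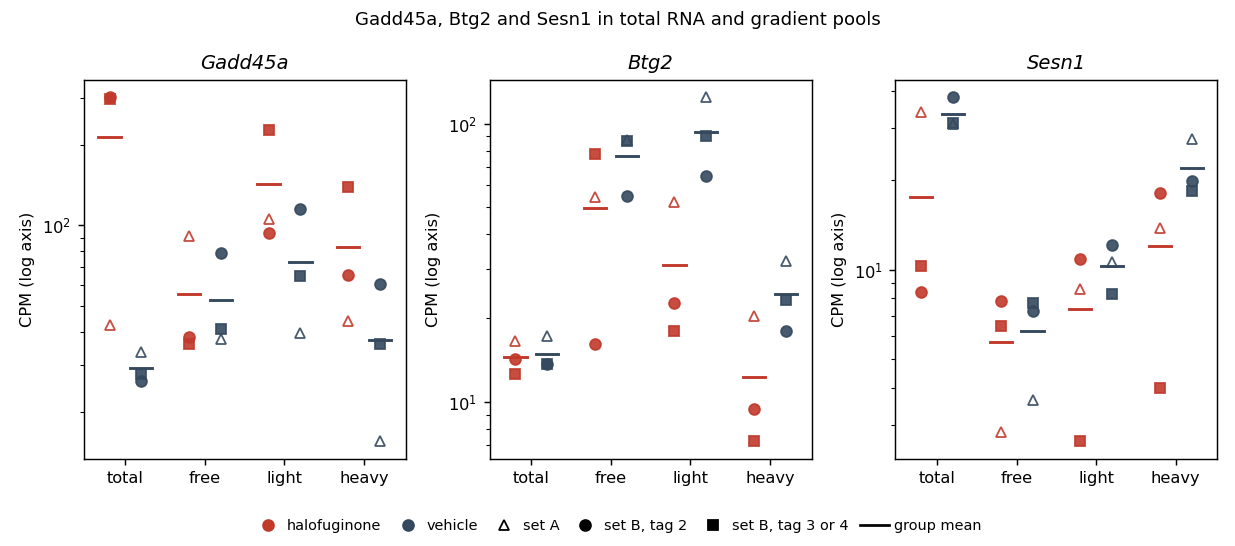
CPM of Gadd45a, Btg2 and Sesn1 in every library of total RNA and of the 3 pools, on log axes, with halofuginone left of vehicle and a line at the group mean; CPM is scaled within each kind of RNA. Btg2 overlaps between treatments in total RNA and separates in light polysomes, and the set A halofuginone library of total RNA lies near the vehicle libraries for Gadd45a and Sesn1.

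Whether the treatment acted differently on polysomes than on total RNA was tested with an interaction term. Of the 10 differences, heavy polysomes minus total RNA, 0 passed (0% of 13459 genes did), and 0 of 10 reached an unadjusted p of 0.05, against 0.951% of all genes. The fitted difference was below 0 for 9 of the 10 genes, but close to 0 for Bax (-0.014 ± 0.31) and Phlda3 (-0.056 ± 0.38). The share of all genes below 0 was not counted, and the differences draw on the same total RNA libraries, set A included. The difference was -1.71 ± 0.95 for Gadd45a, -0.94 ± 0.51 for Btg2 and -0.65 ± 0.43 for Bbc3 on the log2 scale (adjusted p = 1.00 for each after rounding). The median over the 10 genes was -0.28, beside -0.02 over all genes. Heavy polysomes against the ribosome-free pool gave 0 of 10 as well (0% of 13053 genes), and the difference for Gadd45a was 1.16 ± 0.82.

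The position of an mRNA on the gradient is set by how many ribosomes it carries, and the 10 genes were spread widely along it. In halofuginone-treated cells 4 of 10 genes differed between heavy polysomes and the ribosome-free pool, 1 higher and 3 lower, against 21.1% of 12238 genes, and in vehicle-treated cells the same 4 did, against 29.6% of 12225 genes. Zmat3 was higher in heavy polysomes, at a log2 ratio of 1.61 ± 0.42 with halofuginone (adjusted p = 0.0229) and 1.19 ± 0.38 with vehicle (adjusted p = 0.0443). Its levels in heavy polysomes were above all its ribosome-free levels, which ran from 24.6 to 42.3 CPM with halofuginone and from 24.1 to 42.2 CPM with vehicle. With the stricter low-count filter the vehicle value was 0.93 (adjusted p = 0.0720).

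Btg2 had the lowest log2 ratio of the members, at -2.74 ± 0.62 with halofuginone (adjusted p = 0.0134) and -2.45 ± 0.38 with vehicle (adjusted p = 0.00309). This ratio leaves out light polysomes. There the mean level of Btg2 was 31.1 CPM with halofuginone and 93.2 CPM with vehicle. Its ribosome-free means were 49.6 and 76.3 CPM and its heavy means 12.3 and 24.5 CPM, in the same order of treatments. Bax was lower in heavy polysomes than ribosome-free at -1.75 ± 0.53 with halofuginone (adjusted p = 0.0399) and -2.12 ± 0.54 with vehicle (adjusted p = 0.0194). Its mean level with halofuginone was 448 CPM in light polysomes and 394 CPM ribosome-free, and with vehicle 369 and 372 CPM. Within set B the halofuginone value of Bax was -0.94 (adjusted p = 0.145). Mdm2 followed at -1.44 ± 0.42 with halofuginone (adjusted p = 0.0365) and -1.71 ± 0.54 with vehicle (adjusted p = 0.0407), and with no filter its halofuginone value was -1.28 (adjusted p = 0.0501).

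Cdkn1a and Ccng1 had log2 ratios of -1.57 and -1.19 with halofuginone and of -1.85 and -1.19 with vehicle, and did not pass. Libraries of these 2 pools with the same tag deviated together only in part, at r from 0.21 to 0.47, so a pairing by tag was not settled. With the tag as a replicate block both genes passed in both treatments: Cdkn1a at adjusted p = 0.0390 with halofuginone and 0.0135 with vehicle, Ccng1 at 0.0452 with halofuginone and 0.0231 with vehicle. The blocked fit then called 6 of 10 genes with halofuginone, against 30.3% of all genes, and 7 with vehicle, against 36.9%. Gadd45a was at -0.13 ± 0.54 with halofuginone (adjusted p = 0.879, 0.848 with the block) and -1.29 ± 0.51 with vehicle (adjusted p = 0.0863, 0.0169 with the block). The interaction of 1.16 ± 0.82 given above is the test of that difference, and it did not pass. Sesn1, Phlda3 and Bbc3 did not pass in either treatment, with log2 ratios of 0.34, 0.38 and -0.72 with halofuginone and of 1.03, 0.30 and -1.34 with vehicle. Leaving out single libraries moved the count of genes called to between 0 and 4 with halofuginone and between 1 and 5 with vehicle, while the share of all genes called moved as well, between 5.43% and 28.7% with halofuginone and between 15.2% and 47.2% with vehicle. With halofuginone the count was 0 without the heavy library of tag 4, 1 without that of set A, and 2 without the heavy library of tag 2 or either set B ribosome-free library. With vehicle it was 1 without either set B heavy library and 2 without the ribosome-free library of tag 2.

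**Figure D4:**
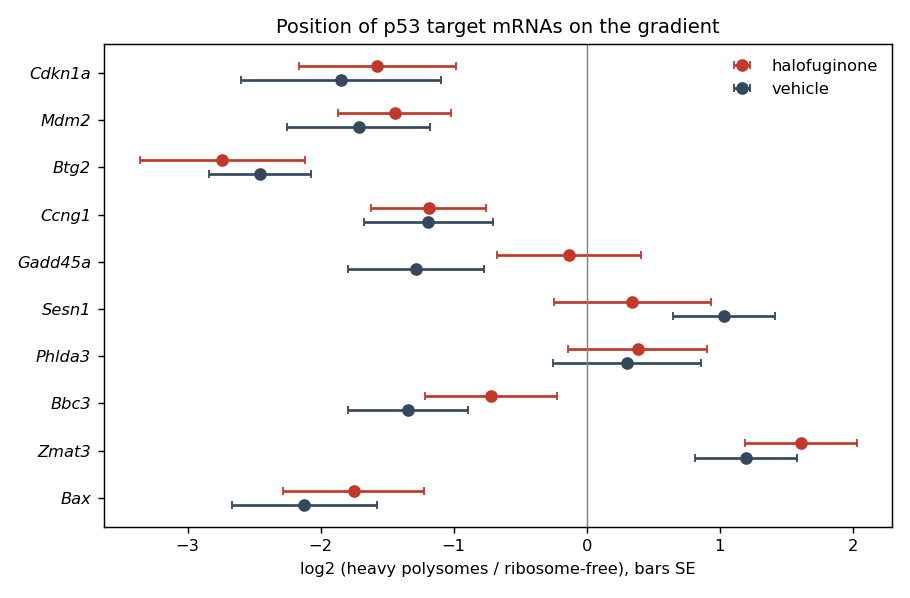
Log2 ratio of heavy polysomes over the ribosome-free pool for the 10 genes, in halofuginone-treated (upper point of each pair) and vehicle-treated cells, with bars for the SE (n = 3 libraries per pool). Zmat3 lies right of 0 and Btg2, Bax and Mdm2 left of it in both treatments, and Gadd45a is the gene whose points lie furthest apart.

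Compared per length of exon in total RNA (RPKM, read counts scaled to exon length and library size), the order of the 10 genes differed between treatments. With halofuginone Gadd45a was first at 121 ± 84.4 RPKM (mean ± SD, n = 3), followed by Bax at 88.2 ± 11.2, Ccng1 at 74.9 ± 21.7, Phlda3 at 74.1 ± 16.7, Cdkn1a at 44.8 ± 1.13, Mdm2 at 32.8 ± 11.7, Zmat3 at 16.8 ± 6.67, Bbc3 at 8.42 ± 2.10, Btg2 at 5.30 ± 0.73 and Sesn1 at 4.40 ± 3.57. With vehicle Phlda3 was first at 74.2 ± 11.6 RPKM, followed by Bax at 68.3 ± 12.6, Ccng1 at 63.1 ± 8.02, Cdkn1a at 34.5 ± 5.03, Mdm2 at 19.6 ± 1.89, Gadd45a at 16.5 ± 2.27, Zmat3 at 10.8 ± 0.83, Sesn1 at 8.40 ± 1.01, Btg2 at 5.42 ± 0.76 and Bbc3 at 3.36 ± 0.19. With vehicle, neighbours differed by more than the sum of their SDs from Ccng1 to Cdkn1a, Cdkn1a to Mdm2, Gadd45a to Zmat3, Zmat3 to Sesn1, Sesn1 to Btg2 and Btg2 to Bbc3, and by less for the others. With halofuginone they did so only from Phlda3 to Cdkn1a and from Bbc3 to Btg2. Gadd45a, which came after Mdm2 with vehicle, had the widest spread with halofuginone, its set A library lying near the vehicle level.

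As halofuginone limits prolyl-tRNA, the share of proline codons in each coding sequence was counted. Bbc3 was richest, with 34 proline codons of 193 (17.6%), above 99.4% of 21054 genes, whose median was 5.26%. Cdkn1a (8.81%) and Zmat3 (8.28%) were also above the median, Btg2 (5.70%) and Mdm2 (5.32%) were close to it, and Gadd45a (4.85%), Bax (3.65%), Sesn1 (3.45%), Phlda3 (2.40%) and Ccng1 (2.38%) were below it. Of the 3 members richest in proline codons, Zmat3 had a positive log2 ratio of heavy over ribosome-free in both treatments and Cdkn1a and Bbc3 had negative ones.

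Across all 24 libraries the members did not share 1 pattern. For the members other than Cdkn1a, whose value is not reported here, the most alike gene by Pearson's r of log2(CPM + 1), among 10120 genes, was Bag1 for Bax (0.984), Ext1 for Zmat3 (0.970), Lipg for Sesn1 (0.955), Prkab1 for Phlda3 (0.952), Timm10 for Bbc3 (0.924), Ier5l for Btg2 (0.896), Fam107b for Ccng1 (0.894), Tgif1 for Gadd45a (0.889) and Ptgs2 for Mdm2 (0.851). Within the 10 genes the closest pairs were Mdm2 and Ccng1 at 0.839 and Gadd45a and Bbc3 at 0.713, and the closest member to Sesn1, Zmat3, reached 0.258. These libraries share kinds of RNA and sets, so the values describe likeness across them and carry no test.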

How the data were processed

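RNA was extracted with TRIzol and made into libraries with the TruSeq Stranded mRNA kit, per the labels' protocols. The authors deposited 1 table of whole-number counts per gene symbol for the 24 libraries. Their processing notes name featureCounts, Subread 1.5.0p3, STAR 2.5.2b and Trimmomatic 0.36, with GRCm38.p5, per the submitters. The strand setting and the handling of reads shared between genes were not given in the sources used here. The kit selects polyadenylated RNA, and no spike-in is mentioned. The table held 0 columns of other samples. Columns were matched to groups by treatment and gradient fractions in their headers, not to single samples; gradient fractions were taken as numbered from the top.

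Counts were fitted with edgeR 4.0.16 (R 4.3.3; TMM scaling, default low-count filter, quasi-likelihood test, Benjamini-Hochberg adjustment over all genes, threshold 0.05). Separate fits covered each kind of RNA, the interactions, heavy against ribosome-free in each treatment, and total RNA of set B alone. Alternatives were DESeq2 1.42.0, median-of-ratios scaling, no filter, a filter of 10 CPM, the set as covariate, set B alone, the column tag as replicate block and leaving out each library. The main edgeR fit was tried on simulated data for total RNA, total RNA of set B, heavy polysomes, and heavy against ribosome-free in vehicle-treated cells. The interaction of treatment with heavy polysomes and total RNA was tried as well. The other comparisons and the alternatives were not. Intervals cover the spread between libraries only. Exon lengths and coding sequences came from GENCODE M21, in which 47240 of 49568 symbols were found.

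Whether column tags pair libraries was judged from how far, across genes, same-tag libraries departed from their group means together (Pearson's r). For the treatments, r was 0.92, 0.82 and 0.80 (ribosome-free), 0.79, 0.68 and 0.39 (light) and 0.77, 0.71 and 0.36 (heavy). For heavy against ribosome-free libraries, r was 0.40, 0.21 and 0.22 with halofuginone and 0.26, 0.44 and 0.47 with vehicle. By these values, and not by any label, libraries of the 2 treatments count as paired by tag in the ribosome-free pool. Total RNA libraries do not, with r of 0.36, 0.41 and -0.003. In light and heavy polysomes the lowest values, 0.39 and 0.36, were of the size seen in total RNA. Pairing of the treatments in these pools was thus not settled. The values of heavy against ribosome-free were mostly of that same size, so pairing there was not settled either. Set A also differs from set B in how fractions were pooled, so r cannot tell pairing by tag from a shared set.

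The members, the gene lists and the comparison within total RNA of set B were chosen with earlier results of these data known. All 10 members are named in each comparison of total RNA; for other lists, up to 3 called genes with the largest change per list in total RNA of set B, and counts elsewhere.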

Additional observations from a re-analysis of the deposited data

How the results depend on the processing

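The count of p53 target genes past the adjusted test in total RNA was 0 and was 2 with DESeq2, and leaving out single libraries gave 0 to 6, the highest without the halofuginone library of set A; the cause was not tested. In total RNA of set B it was 8, and 8 with DESeq2, median-of-ratios scaling, no filter, the stricter filter and the replicate block, and leaving out single libraries gave 7 to 9, where a lone library is assumed to vary like the other group's. For heavy over ribosome-free in vehicle-treated cells it was 4, but 8 with DESeq2, 7 with no filter, 7 with the replicate block, 8 with the set as covariate and 7 within set B, and 1 to 5 with single libraries left out, the lowest without either set B heavy library. In halofuginone-treated cells it was 4 as well, 6 with DESeq2, 6 with the replicate block, 6 with the set as covariate, 5 with the stricter filter, 3 within set B, 4 with median-of-ratios scaling or no filter, and 0 to 4 with single libraries left out. In the other 5 comparisons it was 0 under every setting run. Tags do not pair the total RNA libraries by the data, and the block moved the count there by 0; beyond the calls given in the report it ended no call of the pools. Of 596 values of single genes under settings that keep all libraries, or set B, 25 changed sign, 29 passed the test only there and 3 passed only in the main setting. None of the 25 passed the test in the main setting. They are log2 fold changes, or differences of these. In the ribosome-free pool these were Cdkn1a 0.041 and Phlda3 0.021 with the replicate block, and Cdkn1a 0.039, Gadd45a -0.046 and Phlda3 0.022 with the set as covariate, and Cdkn1a 0.11, Mdm2 -0.041, Gadd45a -0.70 and Phlda3 0.078 within set B. In light polysomes these were Cdkn1a 0.0083 with the replicate block, and Cdkn1a 0.0031 with the set as covariate, and Cdkn1a 0.16 within set B. In heavy polysomes these were Ccng1 0.040 with the replicate block, and Ccng1 0.077 with the set as covariate, and Ccng1 0.31 within set B. For the effect in heavy polysomes minus total RNA these were Bax 0.017 with the stricter filter. For the effect in heavy polysomes minus the ribosome-free pool these were Ccng1 0.044 and Phlda3 -0.015 with the replicate block, and Ccng1 0.053 and Phlda3 -0.012 with the set as covariate, and Ccng1 0.27 and Phlda3 -0.11 within set B. For heavy over ribosome-free in halofuginone-treated cells these were Gadd45a 0.030 with no filter, and Gadd45a 0.75 and Sesn1 -0.097 within set B. With single libraries left out, 100 of 640 values changed sign. In total RNA the range was -0.15 to 0.082 for Btg2 and -0.21 to 0.13 for Phlda3. In the ribosome-free pool the range was -0.98 to 1.06 for Cdkn1a, -0.064 to 0.27 for Mdm2, -0.12 to 0.28 for Ccng1, -0.50 to 0.50 for Gadd45a, -0.43 to 0.20 for Sesn1, -0.79 to 0.84 for Phlda3, -0.42 to 0.68 for Bbc3, -0.0057 to 0.43 for Zmat3 and -0.66 to 0.85 for Bax. In light polysomes the range was -0.72 to 0.76 for Cdkn1a, -0.27 to 0.77 for Ccng1 and -0.82 to 0.56 for Phlda3. In heavy polysomes the range was -0.24 to 0.78 for Cdkn1a, -0.13 to 1.01 for Mdm2, -0.30 to 0.57 for Ccng1 and -0.28 to 0.14 for Phlda3. For the effect in heavy polysomes minus total RNA the range was -0.63 to 0.41 for Cdkn1a, -0.87 to 0.28 for Mdm2, -0.55 to 0.34 for Ccng1, -0.35 to 0.97 for Sesn1, -0.27 to 0.14 for Phlda3, -0.46 to 0.097 for Zmat3 and -0.19 to 0.089 for Bax. For the effect in heavy polysomes minus the ribosome-free pool the range was -1.01 to 1.11 for Cdkn1a, -0.12 to 1.02 for Mdm2, -0.87 to 0.082 for Btg2, -0.38 to 0.59 for Ccng1, -0.97 to 0.74 for Phlda3, -0.069 to 1.10 for Bbc3, -0.0021 to 0.64 for Zmat3 and -0.57 to 1.02 for Bax. For heavy over ribosome-free in vehicle-treated cells the range was -0.0045 to 1.25 for Phlda3. For heavy over ribosome-free in halofuginone-treated cells the range was -0.72 to 0.47 for Gadd45a and -0.045 to 0.78 for Sesn1. In total RNA of set B the range was -0.15 to 0.059 for Btg2. Shifts of the median over all genes beyond 0.1 on the log2 scale came only with changes of the filter in the gradient comparisons. The lowest count of any of the 10 genes was 36, in light polysomes, so depth left each of them measurable in every library.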
